A study of Mus musculus with 40 samples.

Results

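The genes described are 7 globin genes and 2 erythroid genes of the mouse, chosen by symbol from the 26411 genes in the count tables, and all 9 were measured. The 3 embryonic globins are Hba-x, the zeta chain of the alpha family, and Hbb-y and Hbb-bh1, the epsilon-y and beta-H1 chains of the beta family. The 4 adult globins are Hba-a1 and Hba-a2, which encode alpha chains, and Hbb-bs and Hbb-bt, which encode beta chains. Alas2 encodes the erythroid form of the enzyme that starts heme synthesis, and Klf1 encodes a zinc finger transcription factor that activates adult beta-globin and many other red cell genes.

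Hemoglobin is a tetramer of alpha-like and beta-like chains, each holding a heme. The first red cells of the mouse, the primitive erythroid cells of the yolk sac, make embryonic chains together with adult alpha chains and enter the circulation while the heart tube begins to beat. Later, red cells made in the fetal liver use adult chains, and the change from embryonic to adult genes within each locus is called globin switching. Hematopoietic stem and progenitor cells lie upstream of this pathway, and in mature erythroid precursors globin transcripts become a large part of all mRNA.

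RNA was sequenced from 24 whole E9.5 embryos and from 16 samples of E14.5 fetal liver LSK cells, which are lineage-negative, SCA-1-positive and c-KIT-positive hematopoietic stem and progenitor cells obtained by sorting, with 4 libraries for each genotype. KAT6A and KAT6B are paralogous histone acetyltransferases. The E9.5 genotypes were WT (wild type at both genes), Kat6a-/- (labelled cfd/cfd), Kat6b-/- (labelled dec/dec), Kat6aE/E (G656E/G656E), Kat6bE/E (G577E/G577E) and Kat6aE/E;Kat6bE/E, here called the double mutant. WT, Kat6aE/E, Kat6bE/E and double mutant fetuses were used for LSK cells. All mutations were homozygous and present in every cell, the mice were C57BL/6, the E9.5 embryos were male, and both null alleles remove part of the exons, so reads from the remaining exons were still counted. The point mutations exchange a glycine in the acetyl-CoA binding part of the acetyltransferase domain. The labels do not say how many fetal livers made up an LSK sample.

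Assigned read pairs ranged from 8401990 to 23339359 per E9.5 library and from 12270376 to 59216547 per LSK library. Kat6a was at 166 ± 4.65 CPM (read pairs relative to the library total after TMM scaling) in Kat6a-/- and 176 ± 8.79 in WT embryos, and Kat6b was at 54.5 ± 2.75 in Kat6b-/- and 40.5 ± 2.51 in WT (mean ± SD, n = 4). Because exons outside the deletions are included, these levels do not check the null labels. All 8 LSK markers were detected in the LSK samples with a summed level of 988 to 2156 CPM, although Ly6a, the gene for SCA-1, was at only 0.937 to 10.3 CPM. A list of 8 whole-embryo genes summed to 623 to 948 CPM at E9.5 and to 2.03 to 9.26 CPM in LSK samples. Summed levels of lists, here and below, are CPM of the library total without TMM scaling. The embryos came from 17 litters and the LSK samples from 9, and 3 of the 4 double mutant LSK libraries came from a single litter, 1045. WT LSK libraries 1 to 3 also came from a single litter, 753, and WT 4 from litter 1111. LSK comparisons with WT therefore rest on these litters.

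The globin members lie in 2 clusters of the GRCm39 genome. The 4 beta-like genes span chr7:103461727-103502423 on the minus strand, a stretch of 40.7 kb with the embryonic Hbb-y and Hbb-bh1 at the upstream end, and the 3 alpha-like genes span chr11:32226400-32247320 on the plus strand, a stretch of 20.9 kb that starts with Hba-x. Alas2 is at chrX:149330371-149353634 and Klf1 at chr8:85628557-85631934, both on the plus strand. The 120 bases before the RefSeq start site are printed for 7 members so that the promoters of embryonic and adult genes can be read side by side. Capitals mark matches, on either strand, to 4 short motifs. These are CACCC, the core of the site that KLF1 binds, which reads GGGTG on the opposite strand. The next is CCAAT, a common promoter element, which reads ATTGG on the opposite strand. Then follows GATAA, the core of a site for GATA factors, which reads TTATC on the opposite strand. The last is TATAA, the core of the TATA box, which reads TTATA on the opposite strand.
Hba-x: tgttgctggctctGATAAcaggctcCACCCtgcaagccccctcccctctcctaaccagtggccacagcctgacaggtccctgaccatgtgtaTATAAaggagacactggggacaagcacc
Hba-a1: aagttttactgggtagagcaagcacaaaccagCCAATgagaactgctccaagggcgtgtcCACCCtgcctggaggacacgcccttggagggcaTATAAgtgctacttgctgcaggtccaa
Hbb-y: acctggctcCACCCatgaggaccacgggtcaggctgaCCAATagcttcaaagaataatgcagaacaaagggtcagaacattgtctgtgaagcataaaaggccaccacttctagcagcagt
Hbb-bs: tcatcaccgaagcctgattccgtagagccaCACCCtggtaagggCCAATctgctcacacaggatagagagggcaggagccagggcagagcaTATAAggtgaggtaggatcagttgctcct
Hbb-bt: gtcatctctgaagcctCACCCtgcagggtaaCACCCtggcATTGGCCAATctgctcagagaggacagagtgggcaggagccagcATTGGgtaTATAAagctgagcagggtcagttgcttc
Alas2: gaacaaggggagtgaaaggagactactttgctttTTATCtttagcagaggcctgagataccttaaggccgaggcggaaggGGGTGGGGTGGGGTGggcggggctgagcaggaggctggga
Klf1: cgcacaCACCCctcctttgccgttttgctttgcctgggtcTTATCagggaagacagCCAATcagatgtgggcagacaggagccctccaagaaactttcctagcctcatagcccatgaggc
These windows are chr11:32226480-32226599, chr11:32233552-32233671, chr7:103502415-103502534, chr7:103477136-103477255, chr7:103463131-103463250, chrX:149330293-149330412 and chr8:85628491-85628610 in the order printed, and the beta-globin ones are shown as on their own minus strand.

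A CACCC match was present in the 120 bases of all 8 members with a RefSeq sequence, against 31.7% of 32851 mouse promoters. In the embryonic Hba-x it began 95 bases before the start, in Hbb-y 111 and in Klf1 114, whereas the adult Hbb-bt had 2, at 104 and 89. CCAAT was found in 6 of 8 members (21.3% of all promoters), GATAA in 3 of 8, namely Hba-x, Alas2 and Klf1 (10.5%), and TATAA in 5 of 8 (11.8%). The GATAA count depends on the window: within 250 bases before the start it was found in 8 of 8 members, against 22.6% of all promoters. In Hbb-bt a pair of CCAAT matches, one on each strand, adjoin each other. Such matches describe letters and are not evidence that a factor was bound. Hba-a1 and Hba-a2 were identical over 247 of 247 bases upstream, while Hbb-bs and Hbb-bt shared 51.0% of 249 aligned without gaps. Of the 250 bases before each start, between 9 (Hbb-y) and 206 (Hba-a1) lay inside exons of longer GENCODE transcripts of these loci.

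Adult globin copies resemble each other in their transcripts too. Of all 66-base stretches of Hba-a1, 79.9% also occurred in Hba-a2, and of those of Hba-a2, 88.7% occurred in Hba-a1. For the beta genes the shares were 57.1% of Hbb-bt and 61.3% of Hbb-bs, whereas no stretch of Hba-x, Hbb-y, Hbb-bh1, Alas2 or Klf1 was shared with another member. How reads were divided between Hba-a1 and Hba-a2, or between Hbb-bs and Hbb-bt, is therefore uncertain, and the sums of each pair are used for the ratios below. The libraries do not keep strand, so antisense reads are included in every value.

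In WT embryos the embryonic globins were the most abundant members. Per kilobase of gene length, Hba-x was at 2726 ± 480 CPM, Hbb-y at 2660 ± 551 and Hbb-bh1 at 1816 ± 299 (SD, n = 4). Adult alpha transcripts were abundant at the same stage, with 1208 ± 235 CPM per kb for Hba-a1 and 770 ± 158 for Hba-a2, but adult beta transcripts were scarce, with 18.1 ± 2.15 for Hbb-bt and 21.8 ± 12.2 for Hbb-bs. On this scale Alas2 was at 25.1 ± 4.46 and Klf1 at 5.85 ± 1.247. The whole embryo thus held roughly equal amounts of alpha-like and beta-like transcript, with a ratio of 1.04 ± 0.0218 in WT.

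WT LSK samples had the opposite composition. The adult globins stood at 563 ± 354 (Hbb-bt), 666 ± 465 (Hbb-bs), 704 ± 499 (Hba-a2) and 1008 ± 734 (Hba-a1) CPM per kb, against 1.16 ± 0.761 for Hba-x, 6.01 ± 5.31 for Hbb-y and 2.27 ± 1.62 for Hbb-bh1 (SD, n = 4). As a ratio of means, Hba-x was 2357-fold, Hbb-bh1 801-fold and Hbb-y 443-fold higher in WT embryos, with no overlap of libraries. Hbb-bt was 31.1-fold, Hbb-bs 30.6-fold and Klf1, at 70.7 ± 48.5 CPM per kb, 12.1-fold higher in WT LSK samples, also without overlap. Hba-a1, Hba-a2 and Alas2 (12.1 ± 9.24 in WT LSK) overlapped between the stages. Age, tissue and sorting all differ between these sets and cannot be told apart, so no test was made, and in bulk samples fewer cells of a type and less RNA per cell cannot be told apart.

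**Figure D1:**
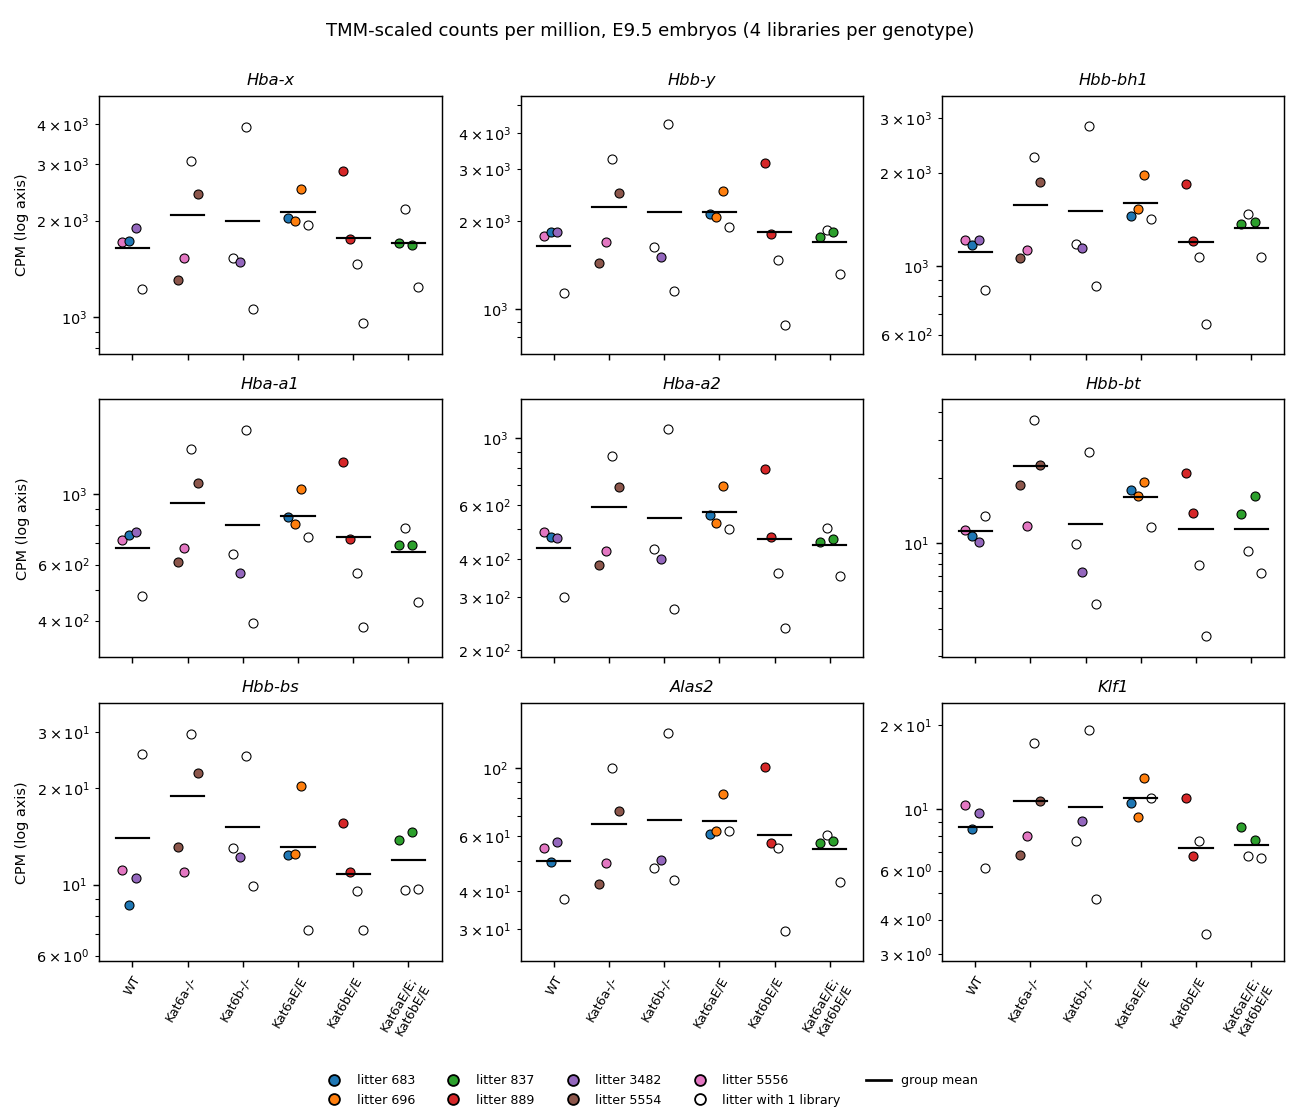
Level of each of the 9 genes (CPM scaled by TMM, log axis) in the 24 E9.5 libraries by genotype, each point a library, filled by litter where litters repeat, and the line the mean of 4. WT libraries of Hbb-y run from 1136 to 1838 CPM, and Kat6aE/E libraries lie above them at 1901 to 2527.

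The study asked whether loss of acetyltransferase activity alters gene expression as loss of the whole protein does, and the comparison is made here for the red cell genes of the embryo. Hbb-y was at 1779, 1838, 1832 and 1136 CPM in WT embryos 1 to 4, and the fourth stood below the others. Kat6a-/- embryos had 1439, 1700, 3263 and 2502 CPM, and Kat6b-/- embryos had 1628, 1507, 4294 and 1153 CPM. Values of both null genotypes overlapped with WT, and Kat6b-/- 3 stood far above the other embryos of its genotype.

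In Kat6aE/E embryos Hbb-y was at 2118, 2059, 2527 and 1901 CPM, so that the lowest exceeded the highest WT library. Kat6bE/E embryos covered a wide range, with 3149, 1806, 1475 and 879 CPM. Double mutant embryos had 1759, 1857, 1826 and 1313 CPM and overlapped with WT. By mean, the order of Hbb-y ran from WT (1646 ± 341) through the double mutant (1689 ± 254), Kat6bE/E (1827 ± 961), Kat6b-/- (2146 ± 1446) and Kat6aE/E (2151 ± 267) to Kat6a-/- (2226 ± 826), and every pair of neighbours in this order overlapped.

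The other embryonic globins followed the same embryos. Hba-x averaged 1639 ± 289 CPM in WT, 2083 ± 819 in Kat6a-/-, 2002 ± 1304 in Kat6b-/-, 2124 ± 262 in Kat6aE/E, 1759 ± 804 in Kat6bE/E and 1698 ± 378 in double mutants. Hbb-bh1 averaged 1108 ± 182 CPM in WT, between 1190 ± 492 (Kat6bE/E) and 1592 ± 254 (Kat6aE/E) in the mutants. Kat6b-/- 3 was the highest of all 24 embryos for both genes, at 3931 and 2836 CPM.

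Among adult globins, Hba-a1 in WT embryos was at 720, 743, 759 and 480 CPM and Hba-a2 at 490, 473, 470 and 301 CPM, with the same embryo lowest. Adult beta transcripts did not share this pattern in WT embryo 4: Hbb-bs was at 11.1, 8.66, 10.5 and 25.5 CPM, and Hbb-bt at 11.5, 10.8, 10.1 and 13.2 CPM. That embryo had the lowest alpha and embryonic globins of its genotype and the highest adult beta globins. Its summed level of 10 visceral endoderm and liver genes was 188 CPM, against 32.8 to 50.6 in the other WT embryos, and Kat6a-/- 4 was at 171, and all 10 genes of the list were detected in WT. The part of those cells in the result was not tested. Hbb-bt was highest in Kat6a-/- 3 at 36.8 CPM and lowest in Kat6bE/E 4 at 3.70.

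Alas2 stood at 55.2, 49.7, 57.8 and 37.7 CPM in WT, at 129 in Kat6b-/- 3 and at 29.6 in Kat6bE/E 4. Klf1 was scarce at E9.5, from 3.54 CPM in Kat6bE/E 4 to 19.2 CPM in Kat6b-/- 3, and averaged 8.63 ± 1.84 in WT. For both genes, as for each globin, all 5 neighbouring pairs in the order of genotype means overlapped.

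None of the 9 genes changed in any of 10 E9.5 comparisons at FDR<0.05 with limma and edgeR voomLmFit, with p-values adjusted after Benjamini and Hochberg across the 14183 genes tested, nor with edgeR quasi-likelihood tests or DESeq2. Over the same genes, 2.64% passed in Kat6a-/-, 0.508% in Kat6b-/-, 0.275% in Kat6aE/E, 0% in Kat6bE/E and 2.91% in double mutants against WT. No member reached an unadjusted p under 0.05, whereas 2399 genes did in Kat6a-/-, 1713 in Kat6b-/-, 1421 in Kat6aE/E, 626 in Kat6bE/E and 2581 in double mutants. For Hbb-y the log2 fold changes against WT were 0.39 in Kat6a-/-, 0.52 in Kat6b-/-, 0.22 in Kat6aE/E, 0.10 in Kat6bE/E and 0.19 in double mutants. Fitted values are adjusted for 4 surrogate variables, which are unlabelled sources of variation estimated from all genes.

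Across the members, log2 fold changes against WT were 0.29 to 0.73 in Kat6a-/- (9 of 9 above 0, median 0.39) and 0.24 to 0.63 in Kat6b-/- (9 of 9, median 0.45), while the median over all genes was 0.00 in both. Kat6aE/E ranged from -0.36 (Hbb-bs) to 0.36 (Hbb-bh1) with 8 of 9 above 0, Kat6bE/E from -0.33 to 0.28 with 6 of 9, and the double mutant from -0.11 to 0.37 with 7 of 9. Standard errors of 0.28 to 0.45 were similar in size to these values. Without Kat6b-/- 3, the log2 fold change of Klf1 in Kat6b-/- was -0.12 in place of 0.50, and with 0 surrogate variables that of Hbb-y was -0.11 in Kat6bE/E and -0.035 in double mutants. The members move together from embryo to embryo, so their shared sign is not independent evidence, and the comparisons share the WT libraries.

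Point mutants and nulls were compared directly. Kat6aE/E against Kat6a-/- gave log2 fold changes from -0.73 to -0.10, Kat6bE/E against Kat6b-/- from -0.69 to -0.27, and the double mutant from -0.60 to -0.10 against Kat6a-/- and from -0.56 to -0.11 against Kat6b-/-. All 9 were below 0 in each and none passed, where 1.6%, 0.0353%, 0.00705% and 0.212% of all genes passed. A departure of the double mutant from the sum of the single point mutants was not found for any member (0% of all genes, with 910 genes and no member at an unadjusted p under 0.05).

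The 4 Kat6aE/E embryos did not overlap with WT for 5 of 9 members, all of them higher: Hba-x, Hbb-y, Hbb-bh1, Hba-a2 and Alas2. Of all genes tested, 4.94% were without overlap in this comparison. In the other 4 mutant genotypes no member was without overlap, where 11.9% (Kat6a-/-), 6.61% (Kat6b-/-), 2.31% (Kat6bE/E) and 7.31% (double mutant) of genes were. WT 4, the low embryo, did not set this limit, because the highest WT embryo was another one for each of the 5 genes.

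**Figure D2:**
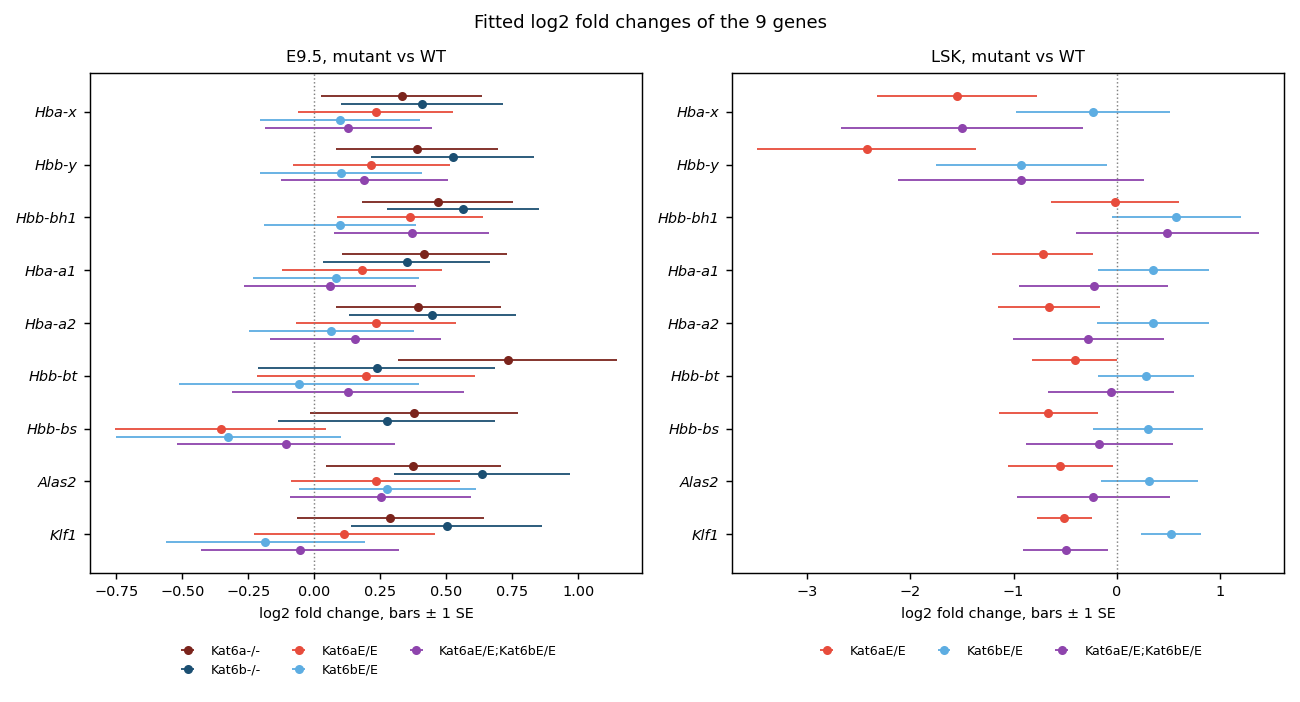
Fitted log2 fold change of each gene against WT at E9.5 (left) and in LSK cells (right), with bars of 1 SE on either side and a colour per genotype. At E9.5 the values lie between -0.36 and 0.73, and in LSK cells the embryonic globins reach -2.42 with wide bars. No value passed FDR<0.05.

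LSK samples varied more than embryos. Fewer genes had at least 1 read pair in 4 of the LSK libraries, the 3 double mutants of litter 1045 and Kat6aE/E 2, with 12600 to 13683 genes against 16082 to 17647 in the other 12. Embryos had 17517 to 18854. For Hba-a1, WT samples 1 to 4 had 356, 462, 269 and 1167 CPM, Kat6aE/E samples had 201, 1937, 726 and 123 CPM, and Kat6bE/E samples had 552, 1628, 1617 and 1247 CPM. Double mutant samples had 356, 4724, 2866 and 2607 CPM. The first of them, from litter 970, lay within the WT range, and the other 3, from litter 1045, lay above all other LSK samples. The WT sample at 1167 CPM came from litter 1111, and the other WT samples came from litter 753. The 4 libraries with few genes detected were the 4 highest for Hba-a1, and the part of this in the results was not tested.

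Hbb-bs, Alas2 and Klf1 also differed between litters 970 and 1045 in double mutants. In the double mutant of litter 970, Hbb-bs was at 276 CPM and Alas2 at 16.5 CPM, and in the 3 of litter 1045 they were at 1959 to 3603 and 133 to 169 CPM. Klf1 was at 57.0, 77.9, 71.5 and 211 CPM in WT, at 58.3, 228, 91.7 and 40.1 in Kat6aE/E and at 159, 296, 291 and 146 in Kat6bE/E. In double mutants it was at 73.4 CPM in litter 970 and at 247, 246 and 289 CPM in litter 1045. Unlike for Hba-a1, Kat6bE/E samples 2 and 3 lay above all of these. No other genotype had a sample from litter 1045, so for those samples litter and genotype cannot be told apart.

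In LSK samples the SD was smaller within litters than between litter means for all members but Hba-x (1.66 against 1.11). Only litters 753 and 970 held more than a single genotype, so the SD of litter means also includes differences between genotypes. Littermates of different genotype still differed. In litter 753, Hba-a1 was at 356, 462 and 269 CPM in WT and 201 CPM in Kat6aE/E, and in litter 970 it was at 552 CPM in Kat6bE/E and 356 CPM in the double mutant. Kat6aE/E 1 and WT 2 of litter 753 differed 2.30-fold for Hba-a1, and the pair of litter 970 differed 2.16-fold for Klf1. Within litters (11 libraries of 4 litters) the SD of log2 CPM was 0.40 to 0.45 for the 4 adult globins, whereas litter means had an SD of 1.24 to 1.51. For Klf1 these values were 0.34 and 0.98. Over all genes tested, the median SD within litters was 0.203.

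**Figure D3:**
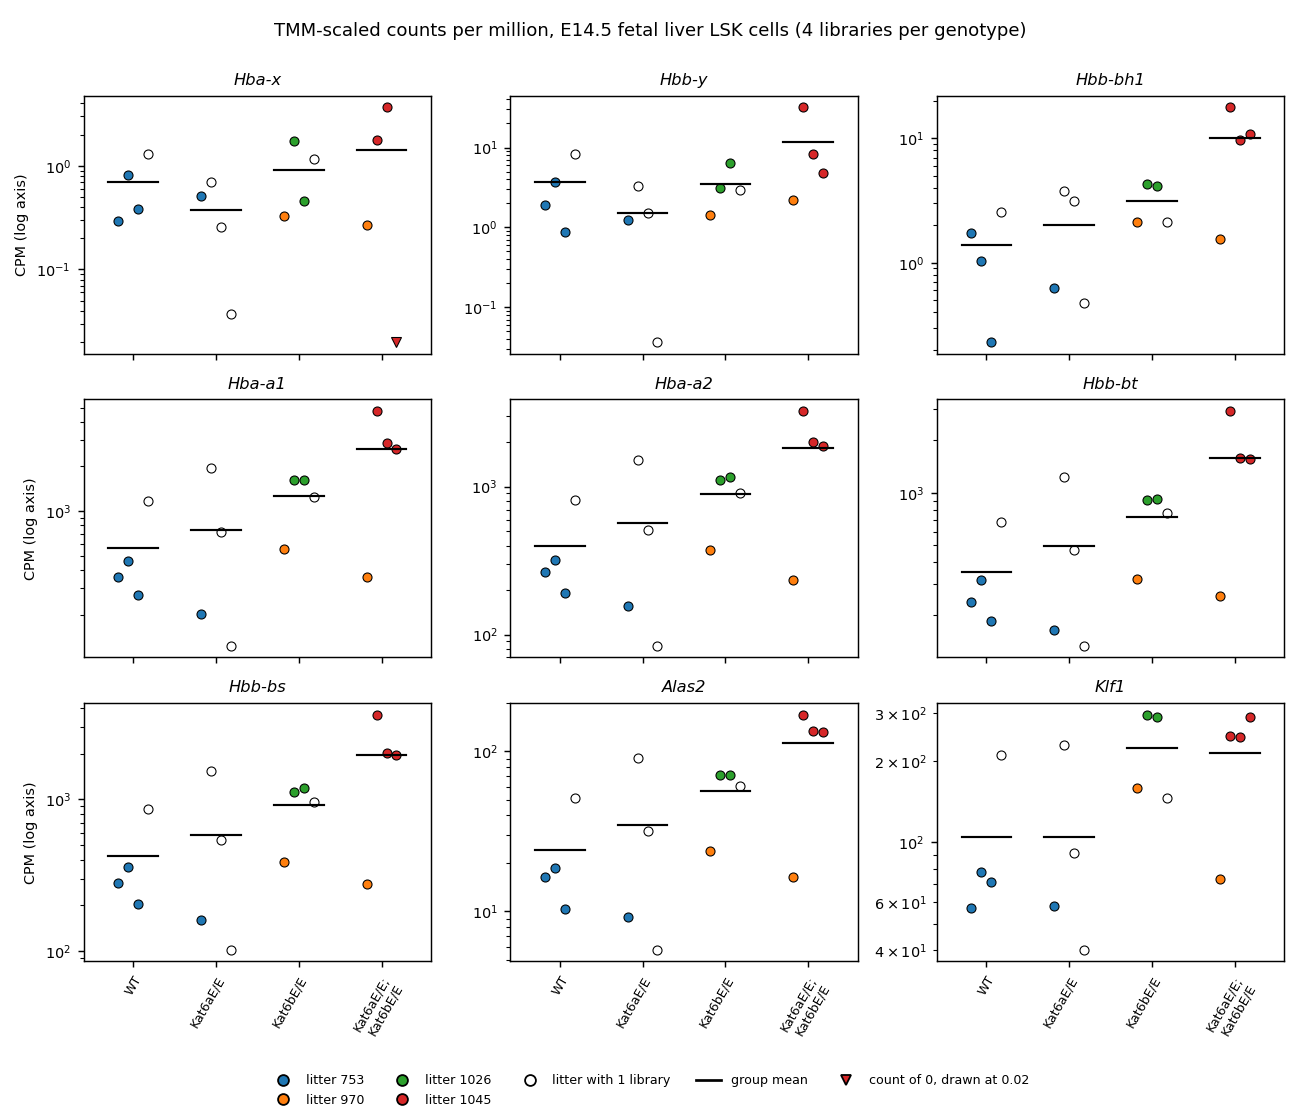
Level of each of the 9 genes (CPM scaled by TMM, log axis) in the 16 LSK libraries by genotype, each point a library filled by litter and the line the mean of 4. A downward triangle marks a count of 0, drawn at 0.02 CPM. The 3 double mutant samples of litter 1045 lie at 2607 to 4724 CPM for Hba-a1, and the one of litter 970 lies at 356.

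Embryonic globins in LSK samples rest on few reads. Over the 16 samples, Hba-x had 0 to 74 read pairs, Hbb-y 1 to 506 and Hbb-bh1 6 to 282. Double mutant 4 had an Hba-x count of 0, which allows up to 0.112 CPM (3 counts, counting error only). Hbb-y was at 1.93, 3.74, 0.885 and 8.32 CPM in WT and at 1.24, 3.25, 1.53 and 0.0368 CPM in Kat6aE/E, the last being a single read pair. Hbb-bh1 averaged 1.38 ± 0.986 CPM in WT, 2.01 ± 1.71 in Kat6aE/E, 3.16 ± 1.198 in Kat6bE/E and 9.98 ± 6.64 in double mutants, in which it ran from 1.56 (litter 970) to 17.8.

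No member changed at FDR<0.05 in any of 6 LSK comparisons with limma and edgeR voomLmFit (13071 genes tested), and 2 member tests had an unadjusted p under 0.05, Hbb-y in Kat6aE/E against WT and Klf1 in double mutants against Kat6bE/E. Of all genes, 1639 and 2721 reached that p in these 2 comparisons. Against WT, 1.36% of genes passed in Kat6aE/E, 0% in Kat6bE/E and 0% in double mutants. At an unadjusted p under 0.05 there were 364 genes and no member in Kat6bE/E, and 896 genes and no member in the double mutant. Kat6aE/E against WT gave log2 fold changes from -2.42 (Hbb-y, SE 1.06, adjusted p = 0.38) to -0.02 (Hbb-bh1), with -0.72 for Hba-a1 (SE 0.49) and -0.51 for Klf1 (SE 0.27). The direction in Kat6aE/E turned with the model: DESeq2 gave 0.40 for Hba-a1 (SE 0.79) and 0.00030 for Klf1, with 7 of 9 members above 0. In voomLmFit with 0 surrogate variables, Hba-a1 stayed below 0 at -0.47 (SE 0.90), and 1 of 9 members was above 0. The mean level of Hba-a1 was 747 ± 837 CPM in Kat6aE/E against 563 ± 410 in WT. That mean includes Kat6aE/E 2 at 1937 CPM, a library with few genes detected. With 4 surrogate variables, Kat6bE/E gave 0.35 for Hba-a1 (SE 0.54) and 0.52 for Klf1 (SE 0.29). No member was without overlap in these 3 genotypes, against 4.1%, 3.92% and 4.53% of genes in Kat6aE/E, Kat6bE/E and double mutants.

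For double mutant LSK samples the fitted direction depended on the surrogate variables. The log2 fold change of Hba-a1 against WT was -0.22 (SE 0.72) with 4 surrogate variables and 1.34 with none, and that of Klf1 was -0.50 (SE 0.41) and 0.62, although the mean level of Hba-a1 was 2638 ± 1790 CPM against 563 ± 410 in WT. Without litter 1045, which leaves a single double mutant sample assumed to vary as the others do, Hba-a1 was at -0.25 (SE 0.74) with 4 surrogate variables and -0.33 (SE 1.19) with none. DESeq2, run without surrogate variables and without litter, called 1 member in double mutants, Hbb-bh1. Its log2 fold change was 2.83 (SE 0.71, adjusted p = 0.00969 by DESeq2), where 2% of genes were called. Littermates counted as independent samples there, and Hbb-bh1 was at 1.56 CPM in litter 970 and 9.72 to 17.8 in litter 1045. With 4 surrogate variables 1 of 9 members was above 0 in double mutants, with none 8 of 9, and with DESeq2 9 of 9.

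The fits were repeated, by a choice made after the data were seen, without the 4 libraries with few genes detected, which left a single double mutant sample, assumed to vary as the others do. No member was called. The log2 fold change of Hba-a1 was then -0.19 (SE 0.35) in Kat6aE/E, 0.38 (SE 0.35) in Kat6bE/E and -0.14 (SE 0.49) in the double mutant against WT, and that of Klf1 was -0.23 (SE 0.14), 0.48 (SE 0.14, adjusted p = 0.30 by limma) and -0.22 (SE 0.20). With 0 surrogate variables and the same libraries, Hba-a1 was at -0.96 (SE 0.62) in Kat6aE/E and -0.21 (SE 1.01) in the double mutant.

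Between double mutants and single point mutants, the members ranged from 0.01 to 1.49 against Kat6aE/E (0% of genes called, 197 at an unadjusted p under 0.05) and from -1.27 to -0.0028 against Kat6bE/E (1.48% called). The direction against Kat6bE/E also turned with the model: 7 of 9 members were above 0 with 0 surrogate variables and 8 of 9 with DESeq2, where Hba-a1 was at 1.07 (SE 0.79) and Hbb-bh1 at 1.67 (SE 0.71, adjusted p = 0.242). Mean levels were 2638 CPM in double mutants and 1261 in Kat6bE/E for Hba-a1. Klf1 against Kat6bE/E had the lowest adjusted p of all 144 member tests, 0.139 by limma, at a log2 fold change of -1.02 (SE 0.34), and over 25 alternatives this ranged from -1.24 to -0.05 without a call. Departure from additivity was not found for any member (0% of genes, 652 at an unadjusted p under 0.05).

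The embryonic to adult ratio of beta-globins differed between the stages by orders of magnitude, and within each stage all mutant groups overlapped with WT. In counts per kilobase, the beta ratio, (Hbb-y + Hbb-bh1) to (Hbb-bs + Hbb-bt), averaged 129 over 24 embryos and ranged from 52.6 in WT 4 to 182 in a double mutant. In LSK samples it averaged 0.00515 and ranged from 0.00227 to 0.00783. Genotype means at E9.5 were 125 ± 49.3 in WT, 98.5 ± 20.4 in Kat6a-/-, 137 ± 6.95 in Kat6b-/-, 137 ± 28.9 in Kat6aE/E, 140.4 ± 10.6 in Kat6bE/E and 138 ± 33.5 in double mutants. LSK means were 0.00619 ± 0.00216 in WT, 0.00391 ± 0.00175 in Kat6aE/E, 0.00427 ± 0.00103 in Kat6bE/E and 0.00621 ± 0.00159 in double mutants.

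The alpha ratio, Hba-x to (Hba-a1 + Hba-a2), was the steadier of both at E9.5. It averaged 1.38 over 24 embryos, from 1.22 to 1.57, and its SD within genotypes was 5.08% of the mean, against 22.3% for the beta ratio and 39.7% for the share of globins in the library. Kat6a-/- embryos had 1.27 ± 0.0288 (1.22 to 1.29) and lay below all WT embryos, at 1.39 ± 0.0731 (1.32 to 1.46). In the other genotypes it was between 1.39 and 1.43 with overlap. In LSK samples it averaged 0.000474, with at most 74 Hba-x read pairs behind a value.

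Other ratios also lay outside the WT range at E9.5, with small differences in the mean. For ratios there is no share over all genes to set beside these. Embryonic to adult transcripts of all 7 globins were at 3.87 ± 0.120 in double mutants and 3.57 ± 0.0622 in WT. Hbb-y to Hbb-bh1 was at 1.26 ± 0.0354 in double mutants and 1.46 ± 0.0907 in WT. The alpha-like to beta-like ratio was lower than in every WT embryo (1.04) in Kat6a-/- (0.987), Kat6b-/- (0.951) and Kat6aE/E (0.992). Because these ratios were computed for members picked with results known, they were not tested.

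**Figure D4:**
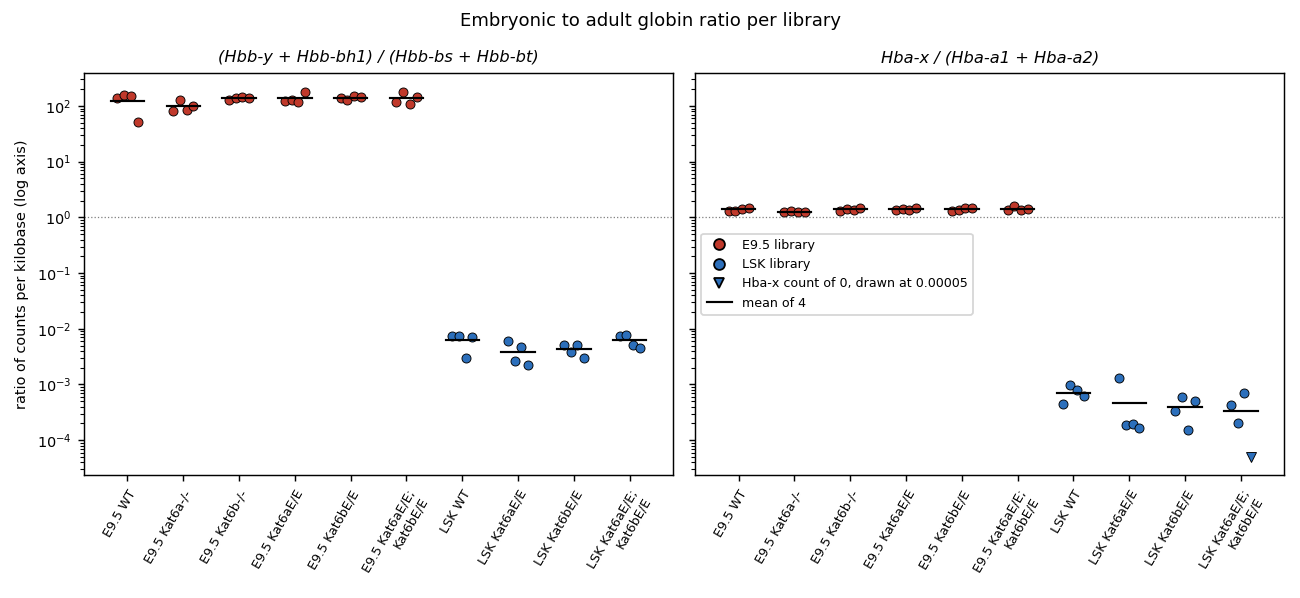
Embryonic to adult ratio of counts per kilobase in each of the 40 libraries (log axis) for beta-globins (left) and alpha-globins (right), with the line the mean of 4 and a triangle for the Hba-x count of 0, drawn at 0.00005. Beta ratios lie at 52.6 to 182 in embryos and at 0.00227 to 0.00783 in LSK samples. Alpha ratios lie at 1.22 to 1.57 in embryos.

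How much of a library the globins took differed widely between samples of a genotype. The 7 genes held 0.542% ± 0.10% of assigned read pairs in WT embryos, and over all embryos from 0.302% (95% Wilson interval 0.299% to 0.305%) in Kat6bE/E 4 to 1.35% (1.34% to 1.35%) in Kat6b-/- 3. Kat6aE/E embryos, at 0.718% ± 0.0966%, lay above all WT embryos. In LSK samples the share ran from 0.0440% (0.0432% to 0.0448%) in Kat6aE/E 4 to 1.37% (1.37% to 1.38%) in double mutant 2. These intervals cover counting error only and are far narrower than the spread between samples.

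Within genotypes the SD of log2 CPM was 0.48 to 0.70 for the members at E9.5, larger than that of 93.0% to 98.7% of genes tested (median of all genes 0.142). It was 0.87 to 1.53 in LSK samples, larger than that of 83.3% to 98.2% of genes (median 0.246). Littermates at E9.5 differed less, with an SD of 0.30 to 0.35 over 14 embryos of 7 litters.

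**Figure D5:**
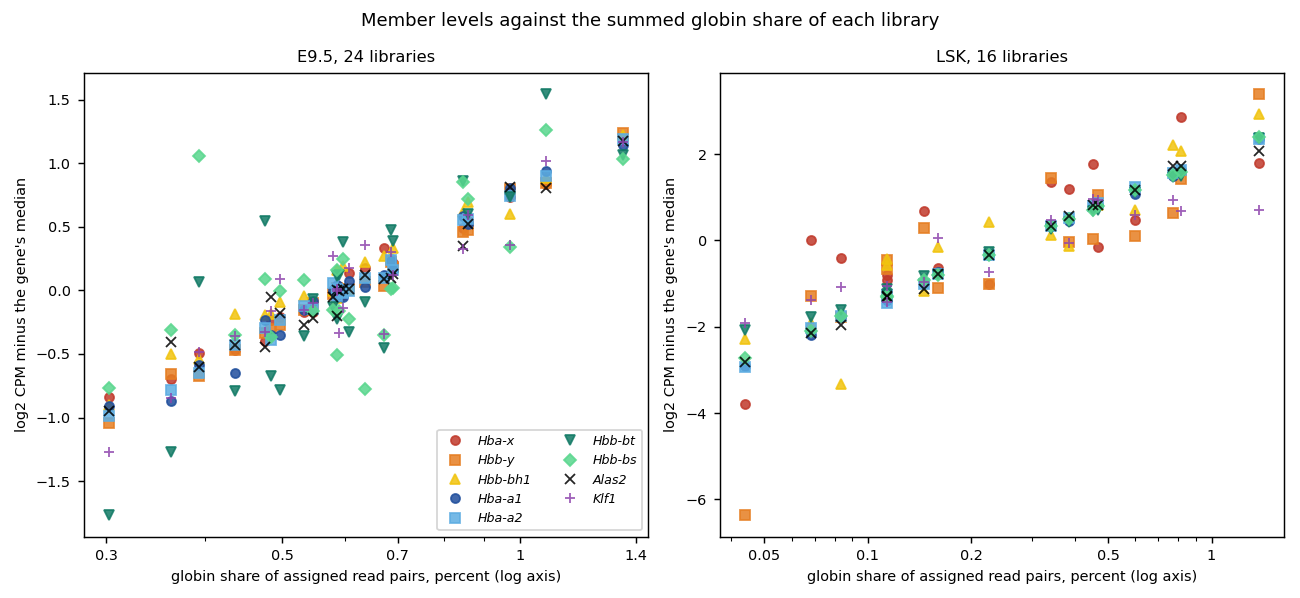
Log2 CPM of each gene minus its median (vertical) against the share of assigned read pairs in the 7 globins (horizontal, log axis) for 24 E9.5 libraries (left) and 16 LSK libraries (right), each symbol a gene and a library. At E9.5 all genes but Hbb-bs and Hbb-bt follow the share closely, and in LSK samples Hba-x departs most.

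The members moved together across libraries. At E9.5 (24 libraries, which share litters and differ in depth), the embryonic globins had Pearson's r of 0.97 to 0.98 with each other on log2 CPM. Against their mean, r was 0.983 for Hba-a1, 0.994 for Hba-a2, 0.978 for Alas2 and 0.918 for Klf1, but 0.831 for Hbb-bt and 0.593 for Hbb-bs. In LSK samples (16 libraries), r with the mean of the adult globins was 0.996 for Alas2, 0.918 for Klf1, 0.927 for Hbb-bh1, 0.847 for Hbb-y and 0.481 for Hba-x. The correlations are given as descriptions.

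Red cell genes were among those most like the members. At E9.5, among the closest to the mean of the embryonic globins were Slc4a1, the band 3 anion exchanger (r = 0.960), Blvrb, a biliverdin reductase (0.959), and Hemgn (0.949). In LSK samples, among the closest to the adult globins were Trim10 (0.994), Tmcc2 (0.989) and Slc4a1 (0.987). Over 78 erythroid genes from 5 lists tested at E9.5 the median r was 0.704, with 31 above 0.8, and over 14096 other genes it was -0.01. In LSK samples it was 0.915 over 79 erythroid genes, 64 of them above 0.8, and -0.13 over 12983 others.

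Other marker lists moved with the adult globins in LSK samples. The summed LSK markers, 8 of 8 detected, were at 1181 to 2031 CPM in WT, 1286 to 2156 in Kat6aE/E, 1027 to 1683 in Kat6bE/E and 988 to 2018 in double mutants, and had r = -0.884 with the adult globins. Of the lineage markers that the sort selects against, the T cell genes Cd3e and Cd8a were at 0 in every genotype. The list of 8 lineage genes summed to 84.8 to 147 CPM in WT, 84.4 to 136 in Kat6aE/E, 94.6 to 135 in Kat6bE/E and 101 to 246 in double mutants, with r = 0.938. Its 7 genes of B, T and myeloid cells summed to 64.9 to 77.1 CPM in WT, 64.9 to 81.6 in Kat6aE/E, 52.1 to 67.0 in Kat6bE/E and 67.0 to 111 in double mutants, with r = 0.0773. The other lists had r of -0.717 (endothelium), -0.300 (megakaryocyte and platelet), -0.173 (macrophage), -0.066 (whole embryo) and 0.136 (visceral endoderm and liver), and total depth had -0.251. Their part in the result was not tested. At E9.5, r with the embryonic globins was 0.957 for the list of 8 lineage genes and 0.556 for its 7 genes of B, T and myeloid cells, 0.532 for macrophage, 0.312 for megakaryocyte and platelet, 0.087 for visceral endoderm and liver, 0.059 for LSK, -0.073 for endothelium and -0.215 for whole-embryo genes, and 0.277 for depth.

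Of the erythroid genes outside the members, few changed. At E9.5 no gene of the lists for transcription regulators (17), heme synthesis (14), iron handling (11) or red cell membrane (19) passed in any mutant against WT, and 1 of 17 tested in red cell metabolism and maturation did. This was Bnip3l, which acts in the removal of mitochondria, at 210 ± 89.5 CPM in double mutants and 133 ± 7.80 in WT (log2 fold change 0.45, SE 0.09, adjusted p = 0.0164 by limma). It passed in 16 of 21 alternatives, not with 0 surrogate variables, with the 8 libraries alone or without WT 2 or WT 3. Red cell membrane genes had a median log2 fold change of 0.30 in Kat6a-/-, 0.46 in Kat6b-/-, 0.21 in Kat6aE/E, 0.15 in Kat6bE/E and 0.10 in double mutants, beside 0.00 for all genes, and transcription regulators had 0.00, 0.07, 0.00, 0.02 and 0.01.

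Several lists had no call against WT, and their most abundant genes are named. At E9.5 these were the cofactor Ldb1 and Klf3 at 277 and 91.1 CPM over all embryos among regulators, the mitochondrial iron carrier Slc25a37 and Cpox at 150 and 95.9 in heme synthesis, Pcbp1 and the ferritin light chain Ftl1 at 746 and 455 in iron handling, and the glucose transporter Slc2a1 and Epb41 at 545 and 322 in the membrane list.

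In LSK samples 1 of 17 transcription regulators changed against WT. Gata2, which acts in stem and progenitor cells and falls as erythroid cells mature, was at 69.8 ± 11.5 CPM in Kat6aE/E and 106 ± 6.30 in WT (log2 fold change -0.57, SE 0.08, adjusted p = 0.00353 by limma). It passed in 21 of 25 alternatives, not with 0 surrogate variables, not with DESeq2 and not without Kat6aE/E 1. Without the 4 libraries with few genes detected, Gata2 was at -0.51 in Kat6aE/E. The regulators Gfi1b (-0.39) and Tal1 (-0.22), not called against WT in the fit of all samples, were also lower than WT there. In the fit of all 16 samples, no gene of the other 4 lists passed against WT. List medians against WT in the order regulators, heme, iron, membrane and metabolism were -0.20, -0.28, -0.13, -0.49 and -0.33 in Kat6aE/E and 0.04, 0.29, 0.09, 0.39 and 0.28 in Kat6bE/E. In double mutants they were -0.14, -0.27, -0.21, -0.37 and -0.38. All genes had medians of -0.01, 0.01 and -0.03. These fits used 4 surrogate variables, and summed levels in double mutants went the other way. Median sums in WT and double mutants were 2961 and 3283 CPM for regulators, 1294 and 2929 for heme and 2531 and 3763 for iron. They were 1133 and 3360 for membrane and 2235 and 4337 for metabolism. The double mutant of litter 970 was at 1361 for heme and 1176 for membrane. Kat6aE/E median sums were 2865, 1377, 2562, 1190 and 2375 in the order of the lists. Fitted medians of the megakaryocyte and platelet list were -0.78 in Kat6aE/E, 0.35 in Kat6bE/E and -0.72 in double mutants. Itga2b, the platelet integrin alpha-IIb chain, was called in Kat6aE/E at -0.78 (adjusted p = 0.0179 by limma). The part of those cells in the result was not tested.

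Double mutants against Kat6bE/E gave 6 calls among the 79 list genes tested, beside 1.48% of all genes, all lower and named after their values were seen. They were the regulators Gfi1b (log2 fold change -0.80) and Tal1 (-0.49), the transporter Abcb6 (-0.72), the ferritin heavy chain Fth1 (-0.34), the adhesion protein Icam4 (-1.24) and carbonic anhydrase 1, Car1 (-1.63), with adjusted p from 0.0306 to 0.0476 by limma. The calls depended on the fit: of 25 alternatives, 4 kept that of Tal1 and 11 that of Abcb6, the lowest and highest numbers. With DESeq2, which has no surrogate variables, Icam4 was at 0.12 and Fth1 at 0.02. Without double mutant 1, the sample of litter 970, Icam4 was at 0.04 and lost its call. Megakaryocyte and platelet genes had a median of -1.21 in this comparison, with Itga2b at -1.21 (adjusted p = 0.0206), beside -0.04 for all genes, and their part in the result was not tested. Without the 4 libraries with few genes detected all 6 kept their calls with 4 surrogate variables, and none did with 0.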

How the data were processed

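RNA was sequenced from whole E9.5 embryos and sorted E14.5 fetal liver LSK cells. The authors deposited raw counts, the read pairs that featureCounts gave to each RefSeq gene on mm39. Reads had been aligned with Rsubread. The libraries are unstranded.

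As in the authors' methods, Y-linked and non-coding genes were dropped, low genes were removed by filterByExpr and libraries were scaled by TMM. Each stage was fitted on its own by voomLmFit, with genotype, 4 surrogate variables from wsva and litter as random effect, followed by robust eBayes (R 4.3.3, edgeR 4.0.16, limma 3.58.1). The threshold was FDR<0.05. DESeq2 1.42.0 was an alternative. Neither DESeq2 nor the edgeR quasi-likelihood tests modelled litter. CPM is scaled by TMM, ratios use counts per kilobase, and the lists are genes of erythroid pathways and cell markers. Named genes are the 9 members, list genes called against WT, and otherwise the 2 most abundant of a list. The procedure was tested on simulated counts of independent libraries, without litter effects. That test does not cover the spread between litters seen here. The members and lists were chosen with earlier results of these data known. Replicates are separate libraries, and p-values measure the spread between them. Some genes are not reported here.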

Additional observations from a re-analysis of the deposited data

Results flagged for a closer look

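Among 170 groups of 4 libraries, 16 had a library that stood apart by Dixon's criterion, which chance gives in about 1 of 20 groups, and many of these values come from the same library. Embryo Kat6b-/- 3 was high for Hba-x (3931 CPM, median of the others 1485), Hbb-y (4294 against 1507), Hbb-bh1 (2836 against 1140) and Alas2 (129 against 47.3).

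WT embryo 4 was low for Hbb-y (1136 CPM against 1832), Hbb-bh1 (836.7 against 1213), Hba-a1 (480 against 743), Hba-a2 (301 against 473) and the globin share (0.393% against 0.586%), but high for Hbb-bs (25.5 CPM against 10.5).

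Alas2 was high in Kat6aE/E embryo 3 (82.2 CPM against 62.4), and Klf1 in WT LSK sample 4 (211 CPM against 71.5), which is the WT sample from litter 1111. The beta ratio was high in Kat6aE/E embryo 4 (180 against 123) and low in WT LSK sample 3 (0.00296 against 0.00727). The alpha ratio was high in Kat6aE/E LSK sample 1 (0.00133 against 0.000190), and the alpha-like to beta-like ratio was low in Kat6b-/- embryo 4 (0.898 against 0.968).

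Hbb-y in Kat6aE/E was above the WT mean in all 4 embryos, by 505 CPM on average, and below it in all 4 LSK samples, with a mean difference of -2.21 CPM. Without WT 4 of each stage the differences were 335 CPM, with 4 of 4 embryos above the WT mean, and -0.67 CPM, with 3 LSK samples below it and 1 above. This difference between stages was not tested.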

How the results depend on the processing

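No member was called under any of the 37 alternatives at E9.5 or the 33 in LSK, with 1 exception. DESeq2, without litter in its model, called 1 member in LSK double mutants against WT. The lowest adjusted p under another alternative was 0.142 at E9.5 and 0.0863 in LSK. Without division by gene length the alpha ratio at E9.5 became 1.49 in WT, 1.36 in Kat6a-/-, 1.51 in Kat6b-/-, 1.49 in Kat6aE/E, 1.5 in Kat6bE/E and 1.54 in double mutants.

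Of the fold changes checked under each alternative, 35 values changed sign and 466 kept both sign and side of the threshold, while 105 values of called list genes lost the call. At E9.5, Hbb-y was at -0.11 in Kat6bE/E and -0.035 in double mutants with 0 surrogate variables, and Klf1 in double mutants was at 0.017 with 6 surrogate variables and 0.012 with edgeR quasi-likelihood tests. In LSK, Hba-a1 in Kat6aE/E was at 0.40 with edgeR without surrogate variables and 0.40 with DESeq2, and Klf1 there was at 0.00030 with DESeq2. Hba-a1 in double mutants was at 1.34 with 0 and 0.074 with 6 surrogate variables, 2.23 with edgeR without surrogate variables, 2.22 with DESeq2 and 1.34 with the 8 libraries alone. Klf1 in double mutants was at 0.62, 1.03, 1.03 and 0.59 with 0 surrogate variables, edgeR without them, DESeq2 and the 8 libraries alone. Against Kat6bE/E, Fth1 was at 0.011 and 0.017 and Icam4 at 0.11 and 0.12 with edgeR without surrogate variables and DESeq2. The cause was not tested.

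Leaving out each library in turn gave -0.12 to 0.26 for Hbb-y in Kat6bE/E embryos, -0.12 to 0.63 for Klf1 in Kat6b-/-, -0.038 to 0.30 in Kat6aE/E and -0.15 to 0.11 in double mutant embryos, -0.38 to 0.89 for Hba-a1 and -0.52 to 0.12 for Klf1 in LSK double mutants against WT, and -1.36 to 0.042 for Icam4. The fit with a replicate block called no member in any comparison and gave 0.12 for Hba-a1 in LSK double mutants. Replicate numbers were not taken to pair samples: same-numbered samples of different genotype had correlations over 0.1 in 17 of 60 pairs at E9.5 and 8 of 24 in LSK, and 7 of 24 embryos and 3 of 16 LSK samples correlated best with their own number.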
